A study of Mus musculus with 4 samples.

Results

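In activated regulatory T (Treg) cells, 913 of 13570 BATF peaks lay off both JunB and IRF4. These peaks, called BATF-alone peaks here, were chosen by their listed positions: none shares a base with a JunB peak, and none shares a base with an IRF4 peak of Junb-sufficient cells. They made up 6.73% of the BATF list (exact binomial 95% interval 6.31 to 7.16%). Of the other 12657 BATF peaks, 638 overlapped JunB but not IRF4, 3057 overlapped IRF4 but not JunB, and 8962 overlapped both. Only the positions were used to form these classes, so their sizes are a description.

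The study asked how JunB shapes DNA binding of BATF and IRF4 in Treg cells, and it used chromatin immunoprecipitation-sequencing (ChIP-seq), in which an antibody recovers the DNA fragments that a protein occupies. CD4+CD25+ Treg cells from spleens of C57BL/6 mice were activated for 60 h with antibodies to CD3 and CD28 in the presence of IL-2. Antibodies against JunB, BATF and IRF4 were applied to Junb-sufficient cells and the IRF4 antibody also to Junb-deficient cells, giving 4 libraries, 1 per condition. The labels name the genotypes Foxp3cre JUNB+/+ and Foxp3cre JUNBFl/Fl, in which Cre is made in Foxp3-expressing cells, whereas the study's methods give Junb fl/fl and Cd4Cre Junb fl/fl, in which Cre is made in all T cells. Either way, the Junb-deficient cells came from mice that lack Junb in Treg cells, and all 4 libraries had the same strain, activation and time. Ages of single mice are not given.

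BATF is a basic leucine zipper protein without a transactivation domain of its own. It binds DNA as a dimer with a Jun protein, usually JunB, JunD or c-Jun, at AP-1 sites. In T cells, BATF-Jun dimers recruit IRF4, which binds weakly by itself, at AP-1-IRF composite elements (AICEs), where an IRF element stands beside or a few bases from the AP-1 site. BATF is required for the differentiation of effector Treg cells.

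The sequences of a few BATF-alone peaks are shown, with AP-1 and AICE words standing for the sites of BATF described above. Each is a stretch of 81 bp of the reference assembly NCBIM37 (mm9), printed 5′ to 3′ on the plus strand with the matched word in capitals. AP-1 was searched as TGACTCA, which reads TGAGTCA on the opposite strand. AICE was searched as GAAA directly before TGANTCA, or as TTTC and TGANTCA with 4 bases between them, so that an AICE match with C or G at N also holds the AP-1 word. Letters were sought on both strands within 100 bp of the peak centre on each side, and a match describes the letters only. Of the 5 BATF-alone peaks that stood first in the list among those with AP-1, 4 are given, named by the gene with the nearest protein-coding transcription start site (TSS).

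Dusp22, chr13:30720280-30720360: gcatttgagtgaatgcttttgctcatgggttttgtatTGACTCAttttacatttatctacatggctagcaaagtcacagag
Cradd, chr10:94724187-94724267: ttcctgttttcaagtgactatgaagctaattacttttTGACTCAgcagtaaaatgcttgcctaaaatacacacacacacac
Ncoa3, chr2:165870604-165870684: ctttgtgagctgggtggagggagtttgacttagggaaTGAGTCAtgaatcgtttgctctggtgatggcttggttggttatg
Wipf1, chr2:73308652-73308732: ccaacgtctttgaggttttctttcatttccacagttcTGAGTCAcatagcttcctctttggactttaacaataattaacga

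The AP-1 words of the Cradd, Ncoa3 and Wipf1 peaks lay 8, 7 and 8 bp from the centre of the peak, and that of the Dusp22 peak lay 34 bp from it. The Cradd, Ncoa3 and Wipf1 peaks are in introns of those genes, and the Dusp22 peak is intergenic. None of the 4 overlapped an IRF4 peak of Junb-deficient cells. The 5 BATF-alone peaks that stood first among those with AICE follow.

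Rai1, chr11:59925357-59925437: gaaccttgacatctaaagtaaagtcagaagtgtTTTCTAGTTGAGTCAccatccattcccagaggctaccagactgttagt
Gzmk, chr13:114029660-114029740: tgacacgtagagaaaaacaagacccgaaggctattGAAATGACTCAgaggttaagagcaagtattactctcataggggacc
Sympk, chr7:19613578-19613658: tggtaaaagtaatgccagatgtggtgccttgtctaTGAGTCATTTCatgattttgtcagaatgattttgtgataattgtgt
Gm11016, chr13:102103822-102103902: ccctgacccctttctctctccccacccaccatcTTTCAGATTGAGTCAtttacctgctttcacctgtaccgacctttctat
Gm9799, chr3:135392227-135392307: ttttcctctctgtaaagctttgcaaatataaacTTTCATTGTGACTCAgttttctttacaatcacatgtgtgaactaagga

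The Gzmk and Sympk matches have the IRF element directly beside the AP-1 word, and the Rai1, Gm11016 and Gm9799 matches have the spaced form. The Rai1, Sympk and Gm11016 peaks overlapped an IRF4 peak in Junb-deficient cells, although no IRF4 peak was listed over them in Junb-sufficient cells. The peaks near Rai1 and Sympk are in introns of those genes, and the other 3 are intergenic.

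The 4 libraries had recorded totals of 21127029 to 27399986 tags (aligned reads), of which 16.0 to 17.9 M entered peak calling once duplicates at a position were dropped. The lists held 29659 JunB peaks, 31093 IRF4 peaks of Junb-sufficient cells and 29033 IRF4 peaks of Junb-deficient cells. Nearly all BATF and IRF4 peaks were 605 to 613 bp wide (13568 of 13570 BATF peaks at 613 bp), whereas JunB peaks were 151 bp wide (29656 of 29659) and needed 10 tags in place of 19, so that a JunB peak had less room to share a base with a BATF peak. Widening the JunB peaks to 613 bp, a choice made after seeing the data, left 877 BATF-alone peaks (6.46%). A further filter of the peak caller dropped candidates under 4-fold above the surrounding 10 kb, which removed 36.2% of BATF and 37.4% of Junb-sufficient IRF4 candidates but 5.25% of JunB candidates. Whether some BATF-alone peaks lay over a JunB or IRF4 candidate dropped there was not tested. Peak lists hold no expression values, so the Treg label and the loss of Junb were not checked against marker genes.

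For the Junb-sufficient libraries titled BATF and IRF4, the antibody field of the labels gives each the other's antibody. The titles were followed, and the study's own list of its ChIP-seq libraries names them as the titles do. The first 13570 peaks of the list titled IRF4 overlapped Junb-deficient IRF4 peaks at 83.4%, against 74.8% of the 13570 peaks of the list titled BATF. Matches to GAAA, 2 bases, GAAA (ISRE-like, a paired IRF element) were at 10.6% and 9.01%, whereas AP-1 matches were at 32.4% and 35.5% and AICE matches at 3.86% and 4.81%. The list titled IRF4 thus had more IRF4 overlap and paired IRF elements, and the list titled BATF had more AP-1 words. The 2 sets are unlike in place, as the first part of the IRF4 list was set against the whole BATF list. Overlap with Junb-deficient IRF4 peaks falls with place, from 93.3% to 65.1% of BATF peaks with a partner over 5 equal parts of the BATF list. These shares therefore cannot decide which antibody gave each list. With the 2 lists exchanged, the same rule gives 49.9% of the list, and every value below would describe IRF4.

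BATF-alone peaks stood late in the BATF list. The deposited score is 1 for every peak, and the place in the list was used in its stead, although the order of the list is not stated. The list was cut into 10 parts of equal size. From the first to the last part, the share of BATF peaks that overlapped JunB fell from 99.6% to 31.2%, so that place tracked overlap with another library. Overlap with JunB is also part of the rule, so the late standing of BATF-alone peaks in part restates this fall and is a description. Of the 1357 peaks in each part, 1, 5, 6, 18, 31, 60, 108, 167, 219 and 298 were BATF-alone peaks, from 0.0737% of the first part to 22.0% of the last. The median place was 11280, compared with 8062.5 for BATF peaks with JunB only, 10197 for those with IRF4 only and 4803.5 for those with both. The first 50% of the list held 61 BATF-alone peaks (6.68%, 5.15 to 8.50%), and the last of 5 equal parts held 517 (56.6%, 53.3 to 59.9%). Because place and absence of a partner move together, several other features were compared at a like place, by odds ratios over 20 strata of the list.

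**Figure D1:**
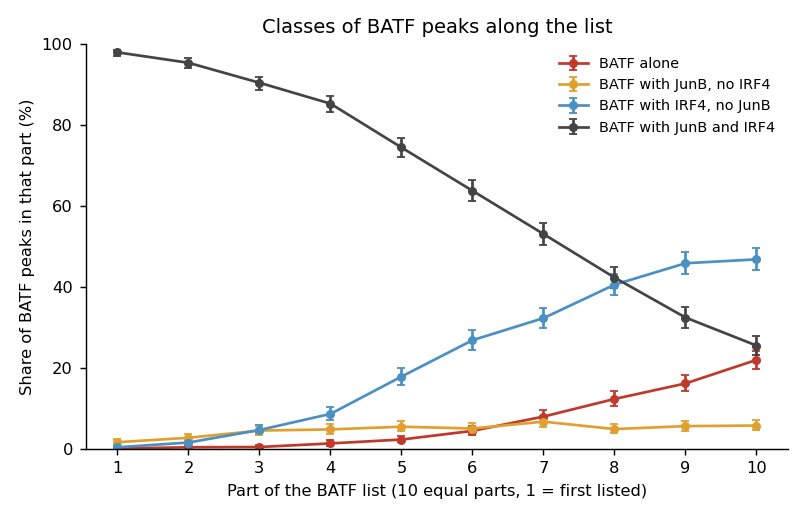
Share of BATF peaks (%) in each class of overlap, in 10 equal parts of the BATF list from the first listed to the last. Points are shares and bars exact binomial 95% intervals over peaks. BATF-alone peaks climb from 0.0737% to 22.0% along the list, whereas peaks with both JunB and IRF4 decline from 97.9%.

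The 10 BATF-alone peaks that stood first in the list ranged from place 1238 to place 3322. The first lay at chr8:19929360-19929972, in a gene that is not protein-coding, with the nearest protein-coding TSS, that of Gm15319, 29122 bp away, and a JunB peak 141 bp from its edge. Others were nearest to 4933426M11Rik, Dusp22 (a dual-specificity phosphatase), Mdfic, Cradd (an adaptor of death signaling), Clasp1 (a microtubule-binding protein), Mbnl1 (a splicing regulator), Nek7 (a kinase of the NLRP3 inflammasome) and Cd47 (the "do not eat me" ligand). Of these 10, 3 held AP-1, those near Dusp22 and Cradd among them, and none overlapped a Junb-deficient IRF4 peak. The Nek7 peak, chr1:140511873-140512485, was listed at place 3230, in an intron 4072 bp downstream of the TSS, with a JunB peak 484 bp and an IRF4 peak 10310 bp away. The Cd47 peak, chr16:49858377-49858989, was in an intron 2862 bp downstream of the TSS and lay 13828 bp from the nearest JunB peak and 19218 bp from the nearest IRF4 peak. Among these 10, the gap to the nearest JunB peak was smallest for the Mdfic peak (75 bp) and largest for the Cd47 peak. For the others it ranged from 141 to 3065 bp, against a median of 14258 bp over all BATF-alone peaks. The most highly placed BATF-alone peaks thus mostly lay nearer to a JunB peak than the class did.

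Most BATF-alone peaks lay more than 1 kb from any listed JunB or IRF4 peak of Junb-sufficient cells. These gaps are to listed peaks only, so they do not show whether weaker binding lay over a BATF-alone peak. The median gap was 14258 bp to the nearest JunB peak and 10051 bp to the nearest IRF4 peak of Junb-sufficient cells. A peak of either list lay within 100 bp of 33 members (3.61%), within 1 kb of 141 (15.4%, 13.2 to 18.0%) and within 10 kb of 559 (61.2%, 58.0 to 64.4%). The other 354 (38.8%) had no JunB and no IRF4 peak within 10 kb. These isolated peaks stood latest, with a median place of 11970.5 and only 3 among the first 50% of BATF peaks, compared with 25 of the 141 peaks with a neighbor within 1 kb. AP-1 was held by 16.7% (12.9 to 21.0%) of the isolated peaks, by 23.2% (19.2 to 27.6%) of the 418 peaks at 1 to 10 kb and by 17.0% (11.2 to 24.3%) of those within 1 kb, with overlapping intervals. TSS-proximal peaks, with their centre within 1 kb of a protein-coding TSS, were 20.6% (14.2 to 28.2%) of the peaks with a neighbor within 1 kb, 7.42% (5.09 to 10.4%) of those at 1 to 10 kb and 10.5% (7.47 to 14.1%) of the isolated peaks.

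**Figure D2:**
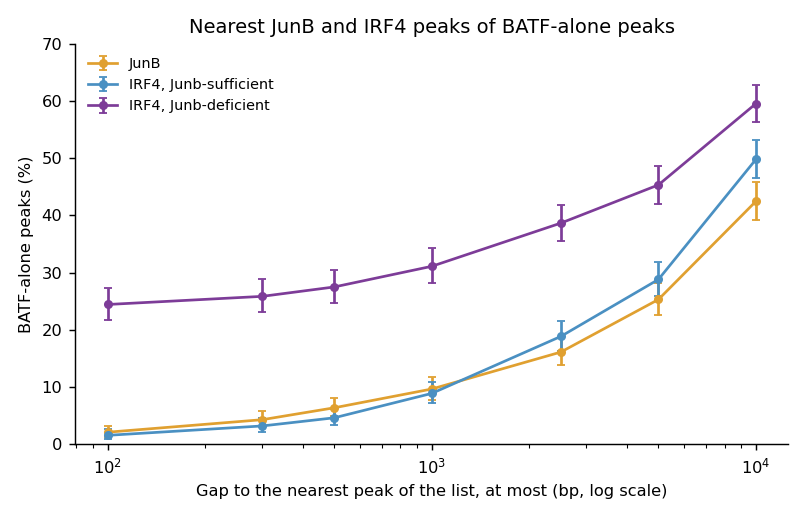
Cumulative share of the 913 BATF-alone peaks (%) whose nearest peak of a list lies within a given gap (bp, log scale), with exact binomial 95% intervals. The rule keeps the JunB and Junb-sufficient IRF4 gaps above 0. Within 100 bp, 2.08% had a JunB peak and 1.53% a Junb-sufficient IRF4 peak, against 24.4% with a Junb-deficient IRF4 peak, which the rule did not use.

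At the threshold of the rule, the 5 BATF-alone peaks closest to a partner missed it by 2, 2, 3, 5 and 6 bp, and were nearest to Mnda, Gm7964, Gpx1, Rpl23a-ps3 and Mettl21d. The 5 BATF peaks just outside the class shared 7, 10, 20, 23 and 26 bp with a partner and were nearest to Rplp2-ps1, Rbm15, Zfp281, Tomm40 and 4931440F15Rik. Few peaks were this close to the boundary: 52 of the other BATF peaks (0.411%) owed their class to an overlap of at most 100 bp.

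IRF4 in Junb-deficient cells was listed over 222 of the 913 BATF-alone peaks (24.3%, 21.6 to 27.2%), against 74.8% of all BATF peaks. Windows of the same width 5 kb downstream of the BATF-alone peaks overlapped a Junb-deficient IRF4 peak at 29 of 913 (3.18%, 2.14 to 4.53%), and windows 5 kb upstream at 19 (2.08%, 1.26 to 3.23%). The share was thus many times that of the neighboring sequence. In BATF peaks with JunB but no IRF4 in Junb-sufficient cells the share was 175 of 638 (27.4%, 24.0 to 31.1%), and in those with IRF4 it was 74.1% without JunB and 83.5% with JunB. The rule removes IRF4 peaks of Junb-sufficient cells and IRF4 was the target in both genotypes, so a share below that of the classes with IRF4 follows in part from the choice. The like comparison is with peaks that also lack IRF4 in Junb-sufficient cells, and there the odds ratio of BATF-alone peaks to JunB-only peaks at a like place was 0.990 (0.761 to 1.29). JunB over a BATF peak without IRF4 therefore went with no detectable difference in how often IRF4 was listed there in Junb-deficient cells, within that interval. Each genotype had 1 library, so a difference in binding and a difference between libraries cannot be told apart.

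**Figure D3:**
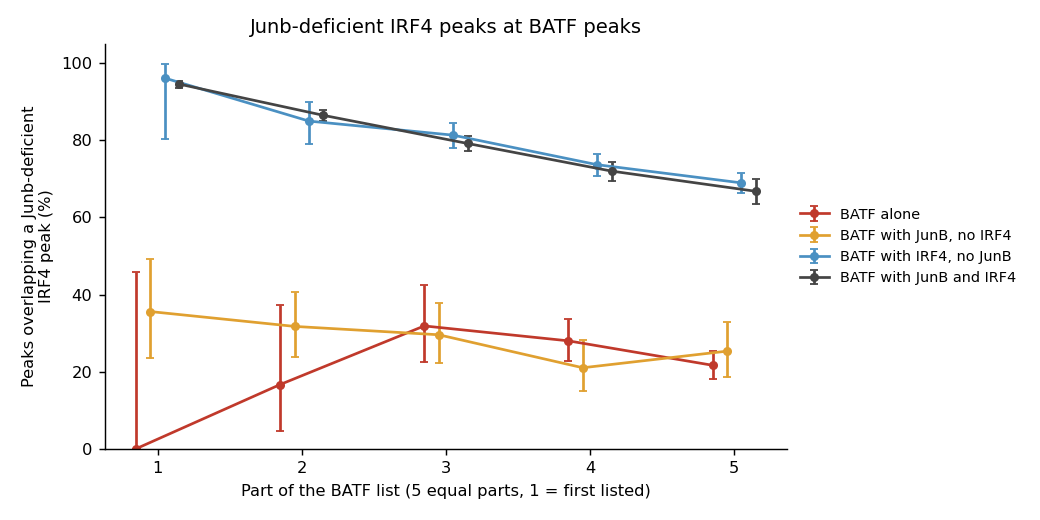
Share of BATF peaks (%) that overlap an IRF4 peak of Junb-deficient cells, by class and in 5 equal parts of the BATF list, with exact binomial 95% intervals over peaks. In parts 3, 4 and 5, BATF-alone peaks sit at 31.9, 28.0 and 21.7%, with intervals that overlap those of JunB-only peaks, whereas part 1 holds only 6 BATF-alone peaks.

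The Junb-deficient IRF4 peaks over BATF-alone peaks were not at the top of their own list. Their median place was 16199 of 29033, against 11541 for the partners of JunB-only peaks, 11266.5 for those of IRF4-only peaks and 5433 for those of peaks with both. Nevertheless 93 of the 222 (41.9%) stood in the first 50% of that list, and 49 (22.1%) in the last of its 5 equal parts. A Junb-sufficient IRF4 peak lay within 1 kb of 20 of the 222 BATF-alone peaks with a Junb-deficient partner (9.01%) and of 61 of the 691 without (8.83%), so the partners were seldom a Junb-sufficient peak listed a short distance away. By sequence, the 222 and the 691 overlapped in their intervals: AP-1 was held by 16.2% (11.6 to 21.7%) and 20.8% (17.9 to 24.1%), AICE by 4.50% (2.18 to 8.13%) and 2.89% (1.78 to 4.43%), and the ISRE-like word by 9.46% (5.95 to 14.1%) and 5.35% (3.80 to 7.31%).

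The first 5 BATF-alone peaks with a Junb-deficient IRF4 peak were near Zkscan3, Cd3d, Rai1, Gemin8 and Laptm5. The Cd3d peak, chr9:44788939-44789551, lies in the intergenic stretch between the divergent genes Cd3d and Cd3g, which encode the delta and gamma chains of the CD3 complex of the T cell receptor, 631 bp upstream of the TSS of Cd3d and 731 bp upstream of that of Cd3g. Its Junb-deficient IRF4 partner stood at place 1822, the first among the partners of the class, and a Junb-sufficient IRF4 peak lay 35 bp from its edge. An IRF4 peak was thus listed over or close beside this BATF peak in both genotypes. The Laptm5 peak, chr4:130469787-130470399, had a partner at place 2824 and a JunB peak 50 bp away, and it lies in an intron of Laptm5, which encodes a lysosomal protein that lowers receptor levels on lymphocytes. The Rai1 peak, whose AICE is printed above, had a partner at place 6213, with the nearest Junb-sufficient IRF4 peak 13319 bp away. The partners of the Zkscan3 and Gemin8 peaks stood at places 12261 and 6747.

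AP-1 words were fewer in BATF-alone peaks than in other BATF peaks but far more frequent than in the flanking sequence. AP-1 was found in 180 of 913 windows (19.7%, 17.2 to 22.4%), against 35.5% of all BATF peaks, 29.6% of JunB-only peaks, 26.2% of IRF4-only peaks and 40.7% of peaks with both. Among windows 5 kb downstream that were clear of every peak, 25 of 886 (2.82%, 1.83 to 4.14%) held it. At a like place the odds ratio of AP-1 in BATF-alone peaks was 0.492 (0.414 to 0.584) against all other BATF peaks, 0.636 (0.489 to 0.827) against JunB-only peaks, 0.684 (0.570 to 0.821) against IRF4-only peaks and 0.369 (0.307 to 0.444) against peaks with both. All of these intervals lie below 1. In strata of place and of 4 classes of GC content together, an alternative chosen after seeing the data, the first of these was 0.545 (0.457 to 0.649). In the first 50% of the list, with 61 BATF-alone peaks, it was 0.784 (0.454 to 1.35).

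Along the list the lower share of AP-1 was seen in the later parts. BATF-alone peaks held AP-1 in 20 of 91 (22.0%), 63 of 275 (22.9%) and 87 of 517 (16.8%) in parts 3, 4 and 5 of 5 equal parts, against 34.2, 34.6 and 32.5% of other BATF peaks. Parts 1 and 2 had 2 of 6 and 8 of 24, too few to compare. Where AP-1 was present anywhere in the 613 bp of a BATF-alone peak (228 peaks, 24.97%, against 43.4% of the others), the word nearest to the centre lay within 50 bp of it in 149 (65.4%, 58.8 to 71.5%), against 71.4% (70.2 to 72.6%) in the others, and the median distance was 31.5 bp against 24 bp. Within 25 bp of the centre the shares were 43.4% (36.9 to 50.1%) and 51.7% (50.4 to 53.0%). By class, the shares within 25 bp were 50.6% (44.0 to 57.3%) of JunB-only and 47.3% (44.2 to 50.5%) of IRF4-only peaks. Both intervals overlap that of BATF-alone peaks, whereas peaks with both stood at 52.8% (51.3 to 54.3%). The words thus lay somewhat farther from the centre than in the pooled others, but not detectably farther than in JunB-only or IRF4-only peaks. These distances were not compared at a like place.

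**Figure D4:**
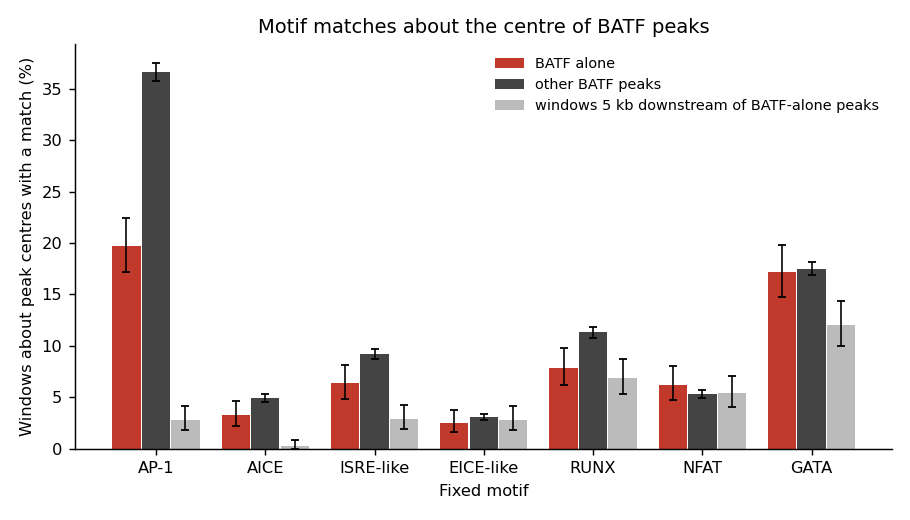
Share of windows reaching 100 bp to each side of a centre (%) with a match to each fixed motif, for the 913 BATF-alone peaks, the 12657 other BATF peaks and the 886 windows 5 kb downstream of BATF-alone peaks that were clear of peaks. Bars are shares and lines exact binomial 95% intervals. AP-1 stands at 19.7, 36.6 and 2.82%, and NFAT at 6.24, 5.33 and 5.42%.

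A search over all 8136 words of 7 letters gave AP-1 itself as the word that differed most between BATF-alone peaks and their downstream windows, at 19.7 against 2.82%. The next were TGACTAA (10.7 against 2.26%), ATGACTC (10.3 against 1.92%), AATGACT (11.5 against 3.39%) and ATGACTA (9.09 against 2.14%), all of which hold or overlap the start of an AP-1 word. TGACTAA differs from AP-1 in its sixth letter, and ATGACTA was nearly as frequent in BATF-alone as in other BATF peaks (9.09 against 10.8%). Therefore TGACTAA and TGAGTAA, which depart from AP-1 in 1 letter, were counted in peaks without the AP-1 word, a choice made after these values were seen. Of the 733 BATF-alone peaks without AP-1, 144 (19.6%, 16.8 to 22.7%) held one of them, against 21.2% (17.5 to 25.2%) of JunB-only peaks, 19.2% (17.6 to 20.9%) of IRF4-only peaks, 29.7% (28.5 to 30.9%) of peaks with both and 4.18% (2.95 to 5.74%) of downstream windows. All other BATF peaks without AP-1 held one in 26.3% (25.3 to 27.2%), and at a like place the odds ratio against them was 0.884 (0.724 to 1.08). As the words were picked on these peaks, these values are a description. With either kind of word counted, 324 BATF-alone peaks (35.5%, 32.4 to 38.7%) held an AP-1 or altered AP-1 word, against 53.3% (52.4 to 54.1%) of other BATF peaks and 6.88% (5.31 to 8.76%) of downstream windows.

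AICE was found in 30 BATF-alone peaks (3.29%, 2.23 to 4.66%), against 4.81% of all BATF peaks and 2 of 886 downstream windows (0.226%, 0.0273 to 0.813%). JunB-only, IRF4-only and JunB-and-IRF4 peaks held it in 3.13, 3.70 and 5.47%. At a like place the odds ratio against other BATF peaks was 0.876 (0.596 to 1.29), whereas without strata it was 0.656 (0.452 to 0.953). At a like place the interval thus reaches from fewer to more AICE words than in other BATF peaks. Of the 30 BATF-alone peaks with AICE, 10 overlapped an IRF4 peak of Junb-deficient cells.

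Other IRF-related and T cell words were close to or below the level of other BATF peaks. The ISRE-like word was found in 6.35% (4.86 to 8.14%) of BATF-alone peaks, 9.01% of all BATF peaks and 2.93% of downstream windows, with an odds ratio of 0.699 (0.528 to 0.927) against other BATF peaks and 0.977 (0.613 to 1.56) against JunB-only peaks. The RUNX word TGTGGTT was found in 7.89% (6.22 to 9.83%), against 11.1% of all BATF peaks and 6.88% of downstream windows. Its odds ratio was 0.663 (0.513 to 0.856) against other BATF peaks and 0.862 (0.571 to 1.30) against JunB-only peaks. Runx1 and Cbfb form a complex with Foxp3 in Treg cells. The NFAT word TGGAAAA was in 6.24% (4.76 to 8.01%), 5.39% and 5.42%, with an odds ratio of 1.26 (0.938 to 1.69), and the GATA word AGATAA in 17.2% (14.8 to 19.8%), 17.5% and 12.1% in the same order. GGAA, 2 bases, GAAA (EICE-like, the site at which IRF4 binds with an ETS partner) was in 23 BATF-alone peaks (2.52%, 1.60 to 3.76%), 3.04% of all BATF peaks and 2.82% of downstream windows. The CRE word TGACGTCA, the other site of BATF dimers, was in 3 (0.329%), the ETS word CCGGAAGT in 4 (0.438%), the STAT word (TTCC and GGAA, 1 base apart) in 8 (0.876%), the SP/KLF word GGGCGGG in 15 (1.64%) and the CTCF core word AGGGGGC in 12 (1.31%). In all BATF peaks these 5 words were in 0.486, 0.420, 1.25, 2.09 and 1.52%. Thus AP-1 and altered AP-1, AICE, ISRE-like and GATA words were above the flanks in BATF-alone peaks, with intervals that do not overlap those of the downstream windows. The downstream windows had a higher median GC content (43.3 against 38.8%) and were not matched for it, so the part of base composition in these differences was not tested.

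BATF-alone peaks were in sequence of lower GC content. The median GC content of the same windows was 38.8%, against 39.8% for JunB-only, 42.8% for IRF4-only and 41.3% for JunB-and-IRF4 peaks, and 43.3% for the downstream windows. The odds ratio of a GC content at or above the median of all BATF peaks was 0.457 (0.396 to 0.528) against other BATF peaks. It was 0.404 (0.346 to 0.471) against IRF4-only and 0.482 (0.412 to 0.565) against JunB-and-IRF4 peaks, but 0.887 (0.704 to 1.12) against JunB-only peaks. Low GC content was therefore shared by both classes of BATF peaks that lack IRF4, and the part of base composition in recovery or alignment of fragments was not tested.

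**Figure D5:**
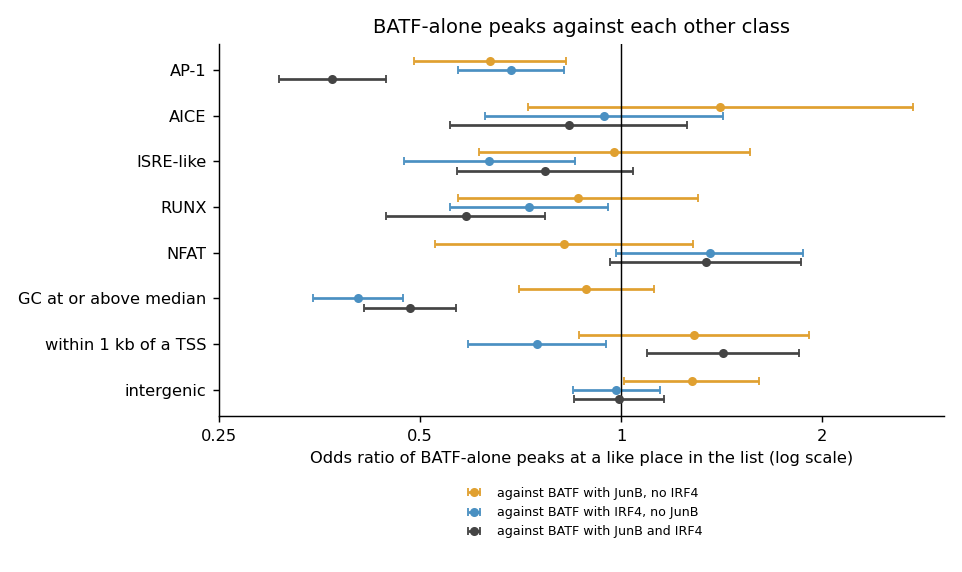
Odds ratios of BATF-alone peaks against each other class of BATF peaks, compared at a like place (Mantel-Haenszel over 20 strata, log scale), with 95% intervals over peaks, and the vertical line marks 1. AP-1 lies below 1 against all 3 classes (0.636, 0.684 and 0.369), and all 3 intervals lie below 1, whereas for GC content the interval lies below 1 against both classes with IRF4 and reaches 1.12 against JunB-only peaks.

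By annotation, most BATF-alone peaks were intronic or intergenic. Their centres were in introns of protein-coding genes in 436 (47.8%, 44.5 to 51.1%), intergenic in 409 (44.8%, 41.5 to 48.1%), in UTRs in 23, in genes that are not protein-coding in 20, in coding exons in 13 and in other exons in 12. In all BATF peaks, 50.3% were intronic and 43.5% intergenic, and the odds ratios at a like place against other BATF peaks were 0.991 (0.861 to 1.14) and 0.994 (0.863 to 1.14). Against JunB-only peaks alone, BATF-alone peaks were more often intergenic (1.28, 1.01 to 1.61), and 2.19% (1.34 to 3.36%) of them lay in genes that are not protein-coding, against 6.43% (4.65 to 8.62%) of JunB-only peaks. A protein-coding TSS lay within 1 kb of 97 BATF-alone peaks (10.6%, 8.70 to 12.8%), against 7.81% of all BATF peaks, 12.9% of IRF4-only and 5.85% of JunB-and-IRF4 peaks. The difference was not seen at a like place: without strata the odds ratio against other BATF peaks was 1.44 (1.16 to 1.80), and at a like place it was 0.972 (0.774 to 1.22). Against single classes it lay above 1 for JunB-and-IRF4 peaks (1.42, 1.09 to 1.84) and below 1 for IRF4-only peaks (0.748, 0.590 to 0.948). The direction of the pooled value also turned with the definition of overlap, to 1.28 (1.06 to 1.55) where centres within 300 bp counted as shared.

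The first 5 TSS-proximal BATF-alone peaks were at Mdfic, Clasp1, Cd3d, Coq10b and Laptm5. The Mdfic peak, chr6:15676784-15677396, had its centre 709 bp upstream of the nearest TSS, within an intron of a longer transcript, and a JunB peak 75 bp away. The Coq10b peak, chr1:55108465-55109077, was 843 bp upstream of the TSS, held AP-1 and had JunB and IRF4 peaks 2122 and 1871 bp away. Coq10b encodes a mitochondrial coenzyme Q binding protein.

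On the X chromosome, 30 of 294 BATF peaks were BATF-alone peaks (10.2%, 6.99 to 14.2%), against 6.73% of all BATF peaks. On autosomes the share ranged from 5.20% (chromosome 10) to 9.02% (chromosome 19, 6.36 to 12.3%). The intervals make no allowance for reading each chromosome. Another BATF peak lay within 10 kb of 19.1% (16.6 to 21.8%) of BATF-alone peaks, which is above the 15.1% (13.8 to 16.4%) of IRF4-only peaks and below the 24.7% of JunB-and-IRF4 peaks and the 36.5% of JunB-only peaks. Neither the chromosome shares nor these were compared at a like place.

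Of the 11799 BATF peaks within 100 kb of a protein-coding TSS, 785 (6.65%) were BATF-alone peaks, and 13 lists of 215 genes were read against this share. Near eTreg-related genes named in the study, 5 of 81 BATF peaks were BATF-alone peaks (6.17%, 2.03 to 13.8%), which is close to that background. They comprised 2 peaks at Ccr2 (a receptor for the chemokine CCL2), and 1 each near Gzmb (granzyme B), Klrg1 (an inhibitory receptor of effector cells) and Prdm1 (Blimp-1, a repressor that marks effector Treg cells). Those near Klrg1 and Prdm1 overlapped a Junb-deficient IRF4 peak. The Ccr2 peaks lay at chr9:124014700-124015312, 1683 bp upstream of the TSS, and at chr9:124021854-124022466, 5238 bp downstream in a UTR, and neither held AP-1.

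Genes of factors that bind together with BATF, and of other transcription factors, had shares near the background. Near the AP-1 family and its partners, 5 of 70 BATF peaks were BATF-alone peaks (7.14%, 2.36 to 15.9%): 2 near Batf2 (a BATF paralog) and 1 each near Bach2 (a repressor that opposes effector differentiation), Fos and Jun. Those near Fos and Jun overlapped a Junb-deficient IRF4 peak. Of 7 BATF peaks near Batf and the 1 near Junb, none was a BATF-alone peak. Near interferon regulatory factors the count was 0 of 28, which allows a share of up to 10.7% by a floor of 3 counts and 12.3% by the exact interval, so that no departure from the background was detectable, and 9 of these 28 were near Irf4 itself. T cell and Treg transcription factors had 7 of 99 (7.07%, 2.89 to 14.0%), with 1 each near Bcl11b, Bcl6, Eomes, Klf2, Lef1, Runx1 and Tbx21, and none of the 4 BATF peaks near Foxp3. The Bcl6 peak, chr16:23990010-23990622, lay 1378 bp upstream of the TSS of this transcriptional repressor, 6853 bp from JunB and 6802 bp from IRF4.

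Signaling lists were likewise near the background, within wide intervals. NF-kB and NFAT factors had 6 of 57 (10.5%, 3.96 to 21.5%): 2 near Nfkb1 and 1 each near Nfkbia, Nfkbiz, Rel and Tnfaip3. The Nfkbiz peak, chr16:55839135-55839747, lay 429 bp upstream of the TSS of this nuclear IkB protein, with a JunB peak 324 bp away. Proximal T cell receptor signaling had 4 of 74 (5.41%, 1.49 to 13.3%), with 2 within 100 kb of each of Cd3d, Cd3e and Cd3g, which are neighbors and share peaks, and 1 each near Cd4 and Cd6. Costimulatory and inhibitory receptors had 5 of 60 (8.33%, 2.76 to 18.4%), 2 of them near Cd226 and 1 each near Cd27, Cd5 and Lag3. Chemokine receptors and integrins had 5 of 94 (5.32%, 1.75 to 12.0%), with 1 each near Ccr8 and Cxcr4 among them. Survival and death genes had 2 of 40 (5.00%, 0.611 to 16.9%), near Cflar and Mcl1, and cell cycle and metabolism genes had 4 of 64 (6.25%, 1.73 to 15.2%), near Cdk6, Ldha, Slc2a3 and Slc3a2.

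The lowest shares among lists with any BATF-alone peak were near cytokine receptors, STAT and SOCS genes, at 1 of 92 (1.09%, 0.0275 to 5.91%), and near cytokines, at 1 of 58 (1.72%, 0.0436 to 9.24%). Of the 13 lists read, that of cytokine receptors, STAT and SOCS genes was the only one whose interval lies below the background of 6.65%. The intervals make no allowance for reading 13 lists. Shares near genes were also not compared at a like place, so the part of place in the BATF list was not tested. The cytokine peak lay at chr11:54062919-54063531, 56 bp upstream of the TSS of Csf2, which encodes GM-CSF, a cytokine of inflammatory T cells. It held no AP-1, and JunB and IRF4 peaks lay 2538 and 2323 bp away. Genes of other cell types had 3 of 28 (10.7%, 2.27 to 28.2%), near Apoa1, Hbb-b1 and Itgam.

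Of the 10 BATF-alone peaks within 10 kb of a TSS of a listed gene, none held AP-1 in its window, against 19.7% of all BATF-alone peaks, and 3 overlapped a Junb-deficient IRF4 peak, against 24.3%. With 10 peaks, neither count is set apart from those shares. The 3 were the peak between Cd3d and Cd3g, 1 in a UTR of Slc3a2 (the heavy chain of amino acid transporters) 141 bp downstream of its TSS, and 1 in an intron of Cdk6 (a G1 cell cycle kinase) 1209 bp downstream of its TSS. The others were at Ldha, Nfkbiz, Ccr2, Bcl6, Csf2 and Nfkb1. The Slc3a2 and Cdk6 peaks lay 10509 and 9925 bp from the nearest Junb-sufficient IRF4 peak, against 35 bp for the peak between Cd3d and Cd3g.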

How the data were processed

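Peak lists of 4 ChIP-seq libraries, 1 per condition, were analysed, so no test between conditions was made. Per the study's reporting summary, the authors used Bowtie2 with mm9 and called peaks with HOMER at its default settings. Per the file headers, each library was called by itself, at a false discovery rate of 0.001, 4-fold above the surrounding 10 kb and with at most 1 tag per bp. The submitters' processing notes name HOMER 4.8, and the study's reporting summary names another version. The deposited lists give positions and a score, equal to 1 throughout, so the place in the list served in its stead, and depth per peak is unknown. Positions were converted to count from 1, and overlap was at least 1 bp.

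The members, gene lists and tests were chosen with earlier results of these data known. TSSs (69976, protein-coding) and annotation came from GENCODE M1 and sequence from NCBIM37, the assembly mm9. Fixed words were sought within 100 bp of the peak centre on each side. Shares have exact binomial (Clopper-Pearson) 95% intervals, and odds ratios at a like place are Mantel-Haenszel estimates over 20 strata of the list with Robins-Breslow-Greenland intervals. Both cover counting error over peaks only. Repeat content was planned but not computed, since the reference used here does not mark repeats.

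The text names the first 10 BATF-alone peaks in the list, the first 5 with a Junb-deficient IRF4 peak, at a TSS, with AP-1 or with AICE, those at the overlap threshold, the 5 words of 7 letters that differed most from downstream windows, and, by list, genes with the most members within 100 kb and members within 10 kb of a TSS. Some of these genes are not reported here. Alternatives changed the overlap, the part of the lists used, the exchange of antibodies, the motif window, the TSSs and the strata. Python 3.11.15, NumPy 2.4.6, SciPy 1.17.1 and matplotlib 3.10.9 were used, and the procedures were tested on simulated data.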

Additional observations from a re-analysis of the deposited data

How the results depend on the processing

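Of 64 alternative values, 37 counted as the same, 20 as moved, 5 as reversed, 1 as weaker and 1 as stronger. A share counted as the same if it fell inside the interval of the share reported above, and otherwise as moved. An odds ratio on the other side of 1 counted as reversed. On the same side, it counted as weaker if its interval came to include 1, and as stronger if its interval no longer did. Taking centres within 300 bp as shared gave 9.03% of BATF peaks as BATF-alone peaks, with 36.8% over a Junb-deficient IRF4 peak, 9.55% in the first 50% of the list and a TSS odds ratio of 1.28. Widening JunB and IRF4 peaks by 500 bp gave 6.07%. The first 50% of the BATF list gave 0.899%, with AP-1 in 31.1%, AICE in 4.92%, an AP-1 odds ratio of 0.784 and a TSS odds ratio of 1.99. There the share in the first 50% is fixed by construction and has no value. The first 50% of the JunB and IRF4 lists gave 19.7%, with 43.7% over a Junb-deficient IRF4 peak, AP-1 in 26.7% and a TSS odds ratio of 0.839. Exchanging the BATF and IRF4 lists gave 49.9%, with 54.2% over a Junb-deficient IRF4 peak, AP-1 in 16.9%, AICE in 1.44%, TSSs within 1 kb in 24.7%, 22.8% in the first 50% and a TSS odds ratio of 3.36. AP-1 was in 15.7% of windows reaching 50 bp to each side and 24.97% of whole peaks. An overlap of 50% left 20.2% over a Junb-deficient IRF4 peak. With 1 TSS per gene, 6.35% lay within 1 kb, and the TSS odds ratio was 1.01 with all transcripts and 1.44 without strata. The cause of these differences was not tested. Widening JunB peaks to the width of BATF peaks and the strata of GC content were chosen after seeing the data. With 1 library per condition, no replicate could be left out, and no paired analysis was possible because the labels give no replicates. The lists keep no tag counts, so weak binding and absence of binding cannot be told apart.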
